A study of Ovis aries with 6 samples.

Results

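Ribosomal protein genes of the cytosolic and mitochondrial ribosomes were compared between corneal epithelial cells and skin epidermal stem cells of sheep (Ovis aries). Gene probes were taken as members where the array's gene name began with RPL, RPS, RPLP, MRPL or MRPS followed by a number, or where the probe's description contained the words ribosomal protein, with S6 kinases left out. The array carried 58 such probes among its 15008 gene probes, 15 found by gene name and 43 by description alone. They stood for 45 genes, of which 23 were cytosolic large-subunit genes (31 probes), 17 were cytosolic small-subunit genes (22 probes) and 5 were mitochondrial (5 probes). Of the 58 probes, 27 were named after a sheep sequence and 31 after a sequence of another species, RPL38 after turbot, so those names rest on likeness between species.

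The study had 3 corneal samples and 3 epidermal samples, each on 1 single-colour array. The cells had been isolated from cornea or skin, grown in culture as adherent cells and detached with trypsin before RNA extraction, and no treatment or genetic change was described for either group. The series calls the samples cell lines, but no label says whether they came from separate animals, and the p-values therefore measure a spread that may be no more than technical. In RNA of a whole culture, fewer cells of a type and less RNA per cell cannot be told apart. Of 8 markers listed for basal keratinocytes and corneal epithelium the array named 2. Both TP63 probes were well above background on 0 of 6 arrays and KRT14 was so on 0 corneal and 2 epidermal arrays, whereas the mesenchymal genes VIM, DCN and COL1A1 were above background on all 6. Between the groups VIM (-0.05) and COL1A1 (-0.24) were not called, and of the DCN probes 1 was lower in corneal cells (-0.44) and 1 not called (0.07), as log2 changes of the kind described further on, and the part of such cells in the results was not tested. The probe of RPL10A, a cytosolic ribosomal protein gene, was also well above background on 0 of 6 arrays, so a probe without signal cannot show that its gene is silent. The markers measured here therefore did not bear out the epithelial label and could not settle it. The groups are called corneal and epidermal after their labels.

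Ribosomes are built from ribosomal RNA and a large set of proteins that form a large subunit, where peptide bonds are made, and a small subunit, where messenger RNA is read. The cytosolic set is needed in near-equal amounts in every cell, and its messenger RNAs share a pyrimidine-rich start that places their translation under the control of MTOR signalling. Mitochondria have a separate ribosome, whose proteins are also encoded in the nucleus and which makes subunits of the respiratory chain.

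Each probe is a 60-base oligonucleotide, and 11 genes had more than 1. The first 7 sequences below belong to probes of RPL10, RPL14 and RPS12 that overlap each other, and capitals mark the bases that all probes printed for that gene share, 42 for RPL10, 59 for RPL14 and 52 for RPS12. They are shown because overlapping probes measure the same stretch of a transcript. The other sequences, with no capitals, are pairs of RPL4 and RPL6 probes that share no bases, and the single probes of RPL7, RPS9 and RPS6, whose differences are described further on. All are printed as the array files list them, and the probes were not placed in a genome here.
RPL10 a: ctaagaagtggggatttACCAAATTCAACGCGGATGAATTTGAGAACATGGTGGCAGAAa
RPL10 b: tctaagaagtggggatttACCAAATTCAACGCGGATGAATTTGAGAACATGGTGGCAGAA
RPL10 c: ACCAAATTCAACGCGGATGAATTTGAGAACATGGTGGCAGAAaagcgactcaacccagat
RPL14 a: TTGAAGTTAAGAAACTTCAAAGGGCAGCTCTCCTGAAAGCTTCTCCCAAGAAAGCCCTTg
RPL14 b: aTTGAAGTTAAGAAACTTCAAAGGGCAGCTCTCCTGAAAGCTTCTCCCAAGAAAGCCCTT
RPS12 b: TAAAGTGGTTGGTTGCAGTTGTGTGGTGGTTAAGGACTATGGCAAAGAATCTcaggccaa
RPS12 c: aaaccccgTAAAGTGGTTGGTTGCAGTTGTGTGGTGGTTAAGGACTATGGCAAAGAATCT
RPL4 a: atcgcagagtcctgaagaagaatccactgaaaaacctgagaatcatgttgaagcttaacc
RPL4 b: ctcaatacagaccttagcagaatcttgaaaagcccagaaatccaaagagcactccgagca
RPL6 a: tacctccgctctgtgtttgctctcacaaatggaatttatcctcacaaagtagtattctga
RPL6 b: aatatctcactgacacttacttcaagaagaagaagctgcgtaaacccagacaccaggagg
RPL7 a: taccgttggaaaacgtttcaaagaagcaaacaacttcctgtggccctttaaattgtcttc
RPS9 a: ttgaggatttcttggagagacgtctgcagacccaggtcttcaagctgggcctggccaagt
RPS6 a: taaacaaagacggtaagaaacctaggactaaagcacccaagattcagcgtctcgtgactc

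Levels are log2 intensities relative to the 75th percentile of all probes on the same array, so a level of 0 is that percentile, and levels of different probes cannot be compared. A change is the corneal mean minus the epidermal mean on the log2 scale, with its SE and its p adjusted over the 11740 probes that 3 or more arrays showed well above background, by limma with Benjamini-Hochberg adjustment and a threshold of 0.05. No spot was saturated. Arrays correlated at 0.995 to 0.998 within groups and at 0.968 to 0.969 between groups. Between 73.3% and 76.2% of probes were well above background on the corneal arrays, against 77.8% to 81.9% on the epidermal arrays. All 6 arrays lay on 1 slide, the corneal arrays in its second row and the epidermal arrays in its first, so position on the slide and group cannot be told apart. Of the members, 57 probes of 44 genes were tested. RPL10A, the remaining gene, was well above background on 0 of the 6 arrays and has no fold change.

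Most ribosomal protein genes differed little between corneal and epidermal cells. More of them were called lower than higher in corneal cells, which also held for all probes. Of the 44 genes, 6 were called higher and 15 lower, against 26.8% of all probes called higher and 33.0% called lower. The share called lower was thus close to that of all probes, and the share called higher was smaller. The calls came to 47.7% of the genes, against 59.8% of all probes. The median change of the 44 genes was -0.08, against -0.04 for all probes, and 34 of the 44 changes (77.3%) lay below 0, against 55.1% of all probes. Their median size without sign was 0.11, against 0.24 for all probes, and 35 genes (79.5%) moved by under 0.25, against 50.9% of probes. The brightest gene that moved by more than that was RPS4X, with an epidermal mean of 4.35. Most of the 35 genes had brighter probes, though some with dimmer probes, such as RPL35 (-0.05), also moved little. Brightness here is probe signal, not amount of RNA. The genes and all probes were not matched for brightness, and its part in these sizes was not tested. One gene, RPL22, passed a 2-fold change, which 7.76% of all probes did with a call. The values of the groups did not overlap for 23 of the 44 genes, against 67.8% of all probes. The 6 genes called higher were all read by probes named after human or bovine sequences. So were RPL22, RPL29, RPS4X and RPS15 among the falls, whereas RPL14 and RPS6, also called lower, had probes named after sheep sequences. The part of probe naming in the changes was not tested.

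**Figure D1:**
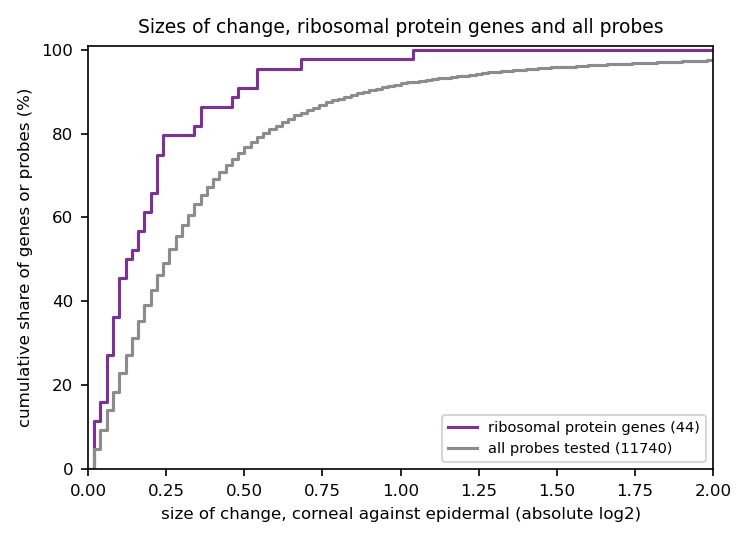
Cumulative share, in percent, of the 44 ribosomal protein genes and of all 11740 probes tested against the absolute log2 change between corneal and epidermal cells. The line of the ribosomal protein genes reaches 79.5% just under 0.25, where the line of all probes stands near 50.9%.

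**Figure D2:**
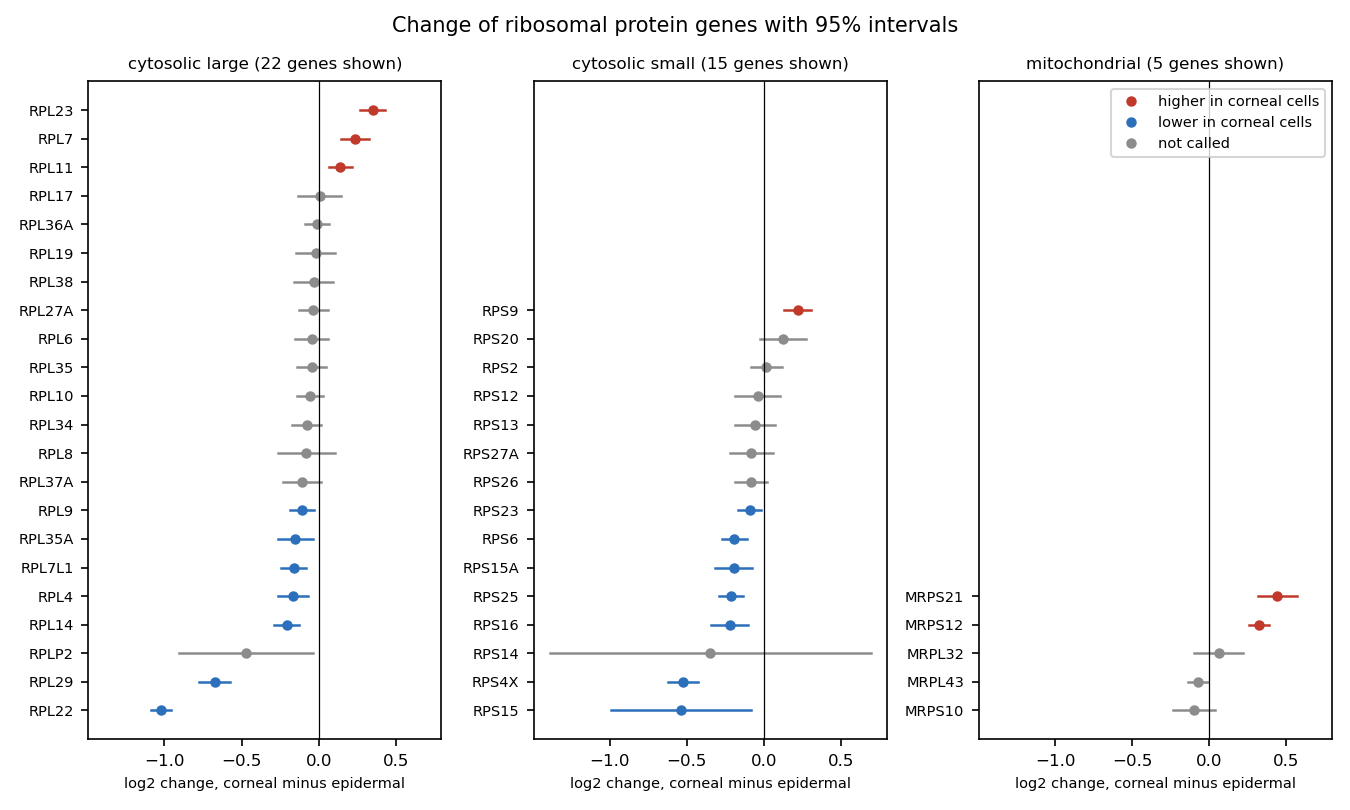
Log2 change, corneal minus epidermal, of 42 of the 44 tested genes with 95% intervals, in 1 panel for each of the cytosolic large, cytosolic small and mitochondrial genes. Most points lie within 0.25 of 0, RPL22 lies apart at -1.02, and the interval of RPS14 is the widest at -1.39 to 0.69.

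In the cytosolic large subunit, 3 of 22 tested genes rose in corneal cells and 7 fell, beside 26.8% and 33.0% of all probes. Their median change was -0.07. The gene that moved most was RPL22, a protein without which mice survive but have a defect of T cell development. RPL22 stood at 0.13, 0.16 and 0.17 in the corneal samples, against 1.16, 1.18 and 1.18 in the epidermal samples. The groups were far apart and each was tight, and the level was 2.03-fold lower in corneal cells (change -1.02, SE 0.027, adjusted p = 2.73e-06 by limma, n = 3 each). RPL29, which is also known as a heparin-binding protein of the cell surface, stood at -3.07, -3.11 and -3.00 in corneal samples, against -2.38, -2.42 and -2.36 in epidermal samples. All corneal values were below all epidermal ones, and RPL29 was 1.60-fold lower (change -0.68, SE 0.042, limma adjusted p = 6.39e-05), though the change was -0.39 with a normexp background correction that leaves out spots of extreme local background.

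The other large-subunit falls were between 1.08-fold and 1.15-fold. RPL14 a, printed above, stood at 6.24, 6.25 and 6.23 in corneal samples, against 6.42, 6.49 and 6.43 in epidermal samples (change -0.21, limma adjusted p = 0.00255). RPL4, whose protein lines the tunnel through which the new peptide leaves, changed by -0.17, with levels of 6.73, 6.69 and 6.67 in corneal samples, against 6.81, 6.87 and 6.91 in epidermal samples (limma adjusted p = 0.0133). In both genes the groups did not overlap, though they were close. RPL7L1, a paralog of RPL7 that was counted in this class by its probe's description alone, fell by 0.16 on the log2 scale (limma adjusted p = 0.00709). RPL35A, which is mutated in some families with Diamond-Blackfan anaemia in humans, changed by -0.15 (limma adjusted p = 0.03), and the call was lost when any sample except epidermal replicate 1 was left out (limma adjusted p of 0.0701 to 0.0903). RPL9, singled out after its values were seen, changed by -0.11 and was no longer called under median centring.

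The 3 large-subunit genes that rose were RPL23, RPL7 and RPL11. RPL23 stood at 1.04, 1.08 and 1.10 in corneal samples, against 0.74, 0.74 and 0.69 in epidermal samples, a 1.27-fold higher level in corneal cells (change 0.35, SE 0.032, limma adjusted p = 0.000292). RPL7, measured by the probe printed above, stood at 7.46, 7.48 and 7.44 in corneal samples, against 7.21, 7.28 and 7.18 in epidermal samples (change 0.23, limma adjusted p = 0.00266). RPL11 stood at 7.71, 7.68 and 7.65 in corneal samples, against 7.52, 7.54 and 7.56 in epidermal samples (change 0.14, limma adjusted p = 0.00946). In all 3 the lowest corneal value was above the highest epidermal one. RPL11 and RPL23 are known outside the ribosome as binders of the ubiquitin ligase MDM2. All 3 rises stayed called under quantile normalization, under median centring and in the authors' value table. Without any scaling, which lowers every change equally, RPL23 (0.18) and RPL7 (0.06) were not called and RPL11 turned to -0.03.

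**Figure D3:**
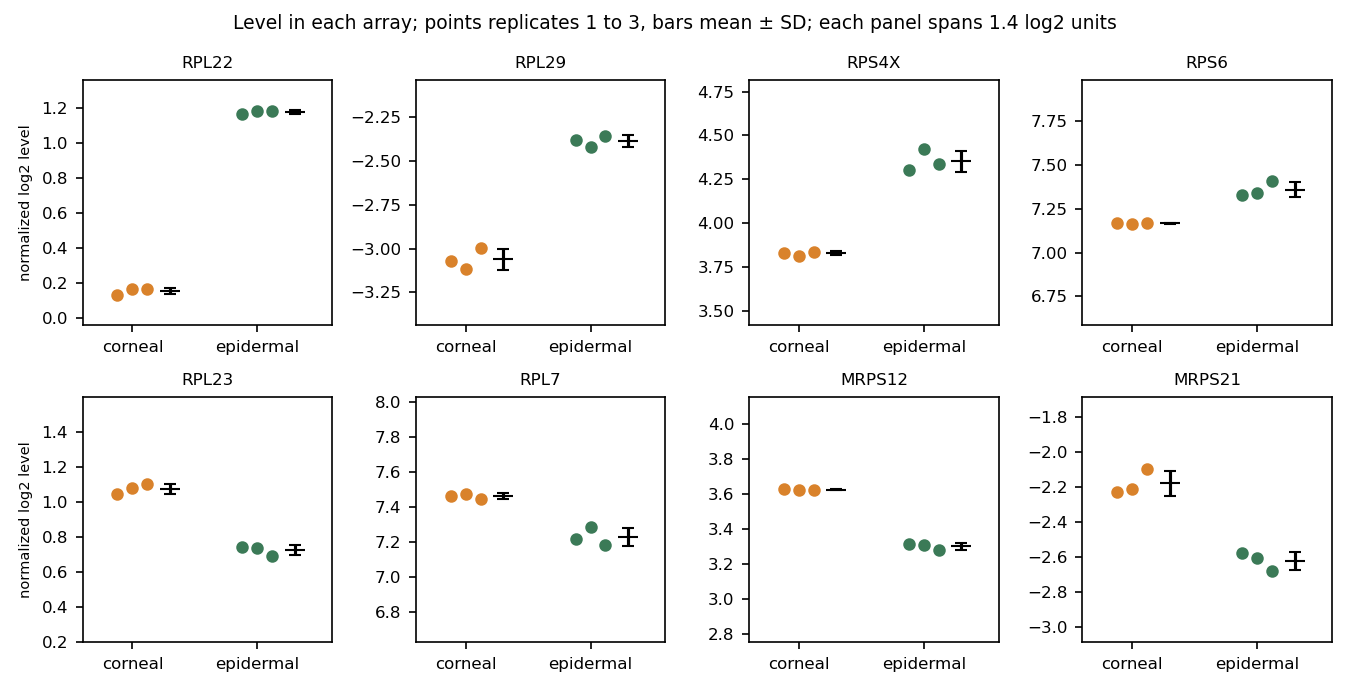
Level of 8 genes in each array, as log2 intensity relative to the array's 75th percentile, with corneal points left of epidermal points and a bar for mean and SD of 3 samples. Every panel spans the same 1.4 log2 units on an axis of its own, and the groups do not overlap in any of the 8.

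The other 12 large-subunit genes were not called. RPL17 b (0.01, 95% interval -0.13 to 0.14), RPL36A (-0.01, interval -0.09 to 0.07) and RPL19 (-0.02, interval -0.15 to 0.11) had the smallest changes. RPL10, which joins the subunit late in its maturation, changed by -0.06 (interval -0.14 to 0.03). For RPL27A, RPL34, RPL35, RPL38, RPL6, RPL8 and the brighter RPL37A probe the changes ran from -0.11 to -0.03. Under quantile normalization RPL27A (-0.12), RPL8 (-0.12) and RPL6 a (-0.07) were called lower, as were RPL27A (-0.13) and RPL8 (-0.11) in the authors' value table. RPLP2, an acidic protein of the stalk that recruits translation factors, had the widest large-subunit interval, -0.90 to -0.03. It stood at -4.60, -4.47 and -4.56 in corneal samples, against -3.83, -4.47 and -3.92 in epidermal samples, so that epidermal replicate 2 lay within the corneal range (change -0.47, limma adjusted p = 0.0625). The RPLP2 change was -0.67 without that sample (limma adjusted p = 0.00091) and -0.12 with a normexp background correction that leaves out spots of extreme local background (limma adjusted p = 0.185).

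In the cytosolic small subunit, 1 of 17 genes rose in corneal cells and 8 fell, beside 26.8% and 33.0% of all probes. Their median change was -0.09. RPS4X, the X-linked member of its gene pair, moved most among the genes measured on all arrays. It stood at 3.83, 3.81 and 3.84 in corneal samples, against 4.31, 4.42 and 4.34 in epidermal samples, 1.44-fold lower in corneal cells (change -0.53, SE 0.039, limma adjusted p = 0.000125). RPS15 had a like fitted change of -0.54 (SE 0.182, limma adjusted p = 0.0468) but was well above background on only 1 corneal array and 3 epidermal arrays. Its values were -5.86, -6.47 and -6.20 in corneal samples, against -5.81, -5.70 and -5.41 in epidermal samples, groups that nearly touch. The RPS15 call did not hold under quantile normalization (-0.29), under median centring, in the authors' value table, without the filter on dim probes, or when any 1 sample other than corneal replicate 1 was left out. With a normexp background correction that leaves out spots of extreme local background its change turned to 0.07.

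RPS6, the ribosomal substrate of the S6 kinases, stood at 7.17, 7.16 and 7.17 in corneal samples, against 7.33, 7.34 and 7.41 in epidermal samples. The corneal values differed by less than 0.01 and all lay below the epidermal ones (change -0.19, limma adjusted p = 0.00348), and the change was smaller but still called under quantile normalization (-0.12) and in the authors' value table (-0.11). RPS16 stood at 8.43, 8.40 and 8.41 in corneal samples, against 8.54, 8.66 and 8.70 in epidermal samples (change -0.22, limma adjusted p = 0.009). RPS25, which some viral messenger RNAs need in order to start translation internally, changed by -0.21 (limma adjusted p = 0.00223), against -0.13 under quantile normalization and -0.14 in the authors' value table, both called. RPS15A changed by -0.20 and lost its call under quantile normalization and in the authors' value table. RPS23, a protein of the decoding centre singled out after its values were seen, changed by -0.09 and was not called under median centring or in the authors' value table.

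RPS9, a protein near the entry of the messenger RNA channel, was the small-subunit gene that rose. It stood at 6.02, 5.93 and 5.94 in corneal samples, against 5.73, 5.76 and 5.74 in epidermal samples, with no overlap (change 0.22, limma adjusted p = 0.00287). Without scaling, which lowers every change equally, the RPS9 change was 0.05 and not called. RPS20, singled out after its values were seen, had the highest change among uncalled small-subunit genes, 0.12 (interval -0.02 to 0.27). RPS2 (0.01, interval -0.08 to 0.11) and RPS12 c (-0.04, interval -0.19 to 0.10) were among the smallest. RPS12 c was called lower under quantile normalization (-0.23) and in the authors' value table (-0.21), whereas RPS12 a and b were not called in either. RPS27A, which is made as a fusion with ubiquitin, changed by -0.08 (interval -0.22 to 0.06), and RPS13 and RPS26 changed by -0.06 and -0.08, the RPS26 change being called at -0.14 under quantile normalization.

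RPS14, whose loss underlies the anaemia of a human chromosome deletion syndrome, could not be placed. It stood at -3.05, -3.37 and -4.64 in corneal samples, against -3.51, -3.26 and -3.25 in epidermal samples. Corneal replicate 3 was more than 1 log2 unit below every other sample, while of the other corneal values 1 lay above all epidermal ones and 1 lay among them (change -0.35, SE 0.418, limma adjusted p = 0.503).

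Of the 5 mitochondrial genes, 2 rose in corneal cells and 0 fell by limma, beside 26.8% and 33.0% of all probes. Their median change was 0.06. At an unadjusted p under 0.05, 1 gene was lower, MRPL43, which limma with an intensity trend also called lower. Both genes that rose belong to the small subunit. MRPS21 stood at -2.23, -2.21 and -2.10 in corneal samples, against -2.58, -2.61 and -2.68 in epidermal samples, 1.36-fold higher in corneal cells (change 0.44, SE 0.050, limma adjusted p = 0.000743). MRPS12, the counterpart of RPS23 at the decoding centre, stood at 3.63, 3.62 and 3.62 in corneal samples, against 3.32, 3.31 and 3.28 in epidermal samples (change 0.32, SE 0.027, limma adjusted p = 0.000207). In both the groups lay well apart. Without scaling, which lowers every change equally, MRPS21 stayed called at 0.27 and MRPS12 was at 0.15 and not called.

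The other 3 mitochondrial genes were not called. MRPL43 stood at 2.38, 2.38 and 2.39 in corneal samples, against 2.47, 2.45 and 2.45 in epidermal samples (change -0.07, interval -0.14 to -0.01, limma adjusted p = 0.0502). MRPS10 changed by -0.10 (interval -0.24 to 0.04). MRPL32, which in yeast and mice is cut by a protease of the inner membrane before it enters the ribosome, changed by 0.06 (interval -0.10 to 0.22). It was called higher, at 0.13, when epidermal replicate 1 was left out and, at 0.10, with the normexp correction without extreme spots, which also called MRPL43 lower.

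Probes of the same gene allowed a check within the family. There were 15 pairs of probes in 11 genes. The 8 pairs that share bases differed in their changes by 0.01 to 0.11, with a median of 0.02, and no pair differed in its call. RPL10 a, b and c changed by -0.06, -0.07 and -0.07, and RPL14 a and b by -0.21 and -0.23. The 7 pairs that share no bases differed by up to 0.38, with a median of 0.07, and 3 pairs differed in their calls. RPL4 a and b were both called lower, with changes of -0.17 each, as were RPS25 a and b, with changes of -0.14 and -0.21.

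The 3 pairs with different calls were those of RPL6, RPL17 and RPL37A. RPL6 b fell by 0.12 on the log2 scale (limma adjusted p = 0.0272) while RPL6 a changed by -0.04 without a call. RPL17 a fell by 0.14 (adjusted p = 0.0123) while RPL17 b changed by 0.01. RPL37A, a zinc-binding protein, had the pair that differed most. RPL37A a stood at 7.27, 7.18 and 7.18 in corneal samples, against 7.24, 7.34 and 7.37 in epidermal samples (change -0.11, limma adjusted p = 0.116). RPL37A b stood at 0.80, 0.83 and 0.83 in corneal samples, against 0.63, 0.48 and 0.55 in epidermal samples and was called higher (change 0.27, limma adjusted p = 0.00354). Without scaling, which lowers every change equally, RPL37A b was at 0.10 and not called. The genes RPL6 and RPL37A were singled out after their values were seen, and a change of 1 probe stands for that stretch of sequence only.

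**Figure D4:**
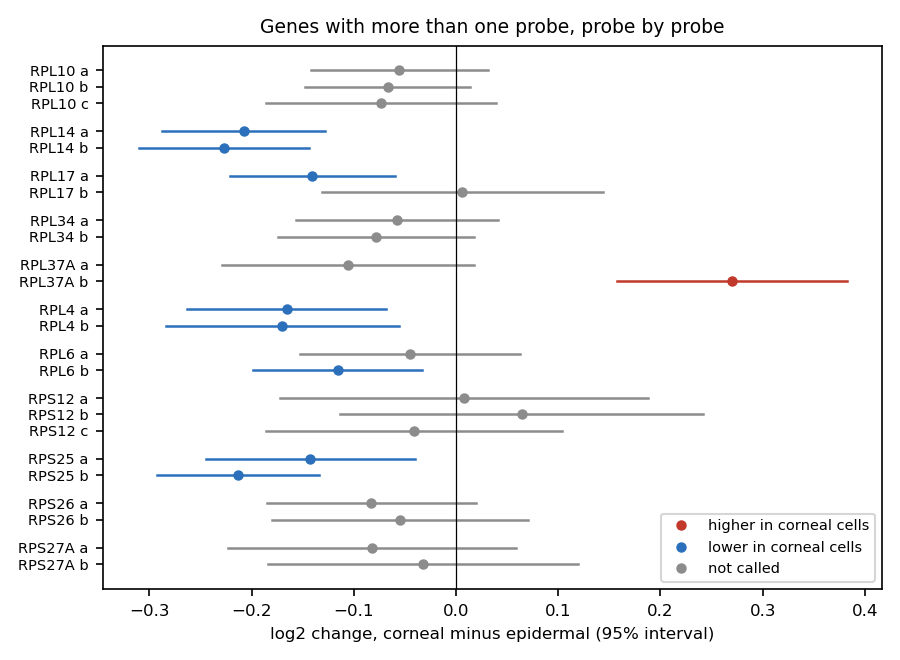
Log2 change, corneal minus epidermal, with 95% interval for each probe of the 11 genes that had several, grouped by gene. The probes of RPL10, RPL14 and RPL4 lie close together, whereas RPL37A a (-0.11) and RPL37A b (0.27) lie on opposite sides of 0.

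Across samples, the scaled levels of most cytosolic genes and all mesenchymal marker probes were lowest in the same epidermal sample. Epidermal replicate 1 was the lowest epidermal sample for 32 of 39 cytosolic genes (82.1%), against 41.2% of all probes, and its cytosolic genes lay a median of -0.06 from the group mean. The 5 mitochondrial genes did the opposite there, with epidermal replicate 1 highest for 5 of 5. The 5 probes of VIM, DCN and COL1A1 were also all lowest there (5 of 5), so low values were also seen in these few probes outside the ribosomal genes. No corneal sample was lowest for more than 14 of the 39. Without epidermal replicate 1 the small-subunit median change was -0.13 in place of -0.09. This sample also had the most outlier spots, 19, against 3 to 10 on the other arrays. Its 75th percentile, which is subtracted from every level, was the highest, 10.13 in log2 units, against 9.82 to 9.95 on the other arrays. The part of the scaling, the outlier spots or the mesenchymal markers in the shift was not tested.

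Leaving out the scaling moved the family as a whole by more than its median change. Without scaling between arrays the median change of all probes shifted by -0.17, to -0.22, and that of the 39 cytosolic genes stood at -0.25, so relative to all probes the family again stood slightly lower. The higher share of all calls was 44.8% under the 75th percentile, 48.8% under quantile normalization, 48.9% under median centring and 22.5% without scaling. The cytosolic median was -0.11 under quantile normalization, -0.06 under median centring and -0.10 in the authors' value table. Since leaving out the scaling lowers every change by the same amount, the falls that stayed called there and the rises that lost their calls show nothing about single genes. RPL22 changed by -1.19 to -0.97 across these settings and the normexp correction without extreme spots. A normexp background correction over all spots, 7 of which had extreme local background on epidermal replicate 1, left RPL22 as the only called gene and turned the sign of 8 changes among the 18 named genes that were called and of 7 among the 12 that were not, whereas without these spots 20 of the 21 calls were made again.

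**Figure D5:**
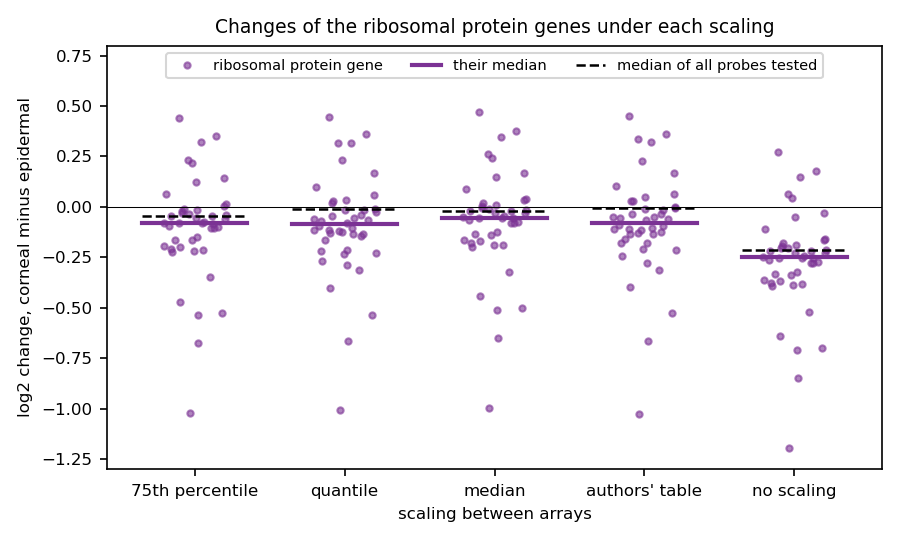
Log2 changes, corneal minus epidermal, of the 44 ribosomal protein genes under 5 scalings between arrays, with points spread sideways for legibility, a solid line at their median and a dashed line at the median of all probes tested. The solid line lies slightly below the dashed line in all 5, and they stand at -0.25 and -0.22 without scaling.

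Other genes of ribosome production and its control were counted from lists of named genes. Of 75 genes of ribosome assembly and ribosomal RNA synthesis the array named 9, and 8 were tested. SBDS and BYSL rose and RSL1D1, WDR12 and EIF6 fell in corneal cells. SBDS and EIF6 act on the same step of large-subunit maturation, in which SBDS helps to release EIF6. SBDS averaged 3.36 ± 0.028 in corneal cells and 2.90 ± 0.054 in epidermal cells (SD, n = 3 each; change 0.46, limma adjusted p = 0.000218). EIF6 averaged 3.21 ± 0.039 in corneal cells and 3.39 ± 0.0070 in epidermal cells (change -0.18, limma adjusted p = 0.00386). BYSL changed by 0.26, RSL1D1 by -0.33 and WDR12 by -0.31. DKC1, DDX47 and the brighter RIOK3 probe were not called (-0.03 to -0.02), the other RIOK3 probe was lower (-0.24), and NCL was well above background on 0 arrays.

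Of 57 names on a list for mitochondrial translation, 2 were measured. SLIRP, which binds mitochondrial messenger RNA, changed by 0.08 and was called higher, but was not called under quantile normalization and turned to -0.09 without scaling, and the release factor gene MTRF1 changed by -0.48 and was called lower. Of 25 genes that control ribosomal protein messenger RNAs or encode S6 kinases, 5 were measured. MTOR averaged 3.00 ± 0.020 in corneal cells and 2.63 ± 0.033 in epidermal cells (SD, n = 3 each; change 0.37, limma adjusted p = 0.000216). RPS6KB1, the kinase that phosphorylates RPS6, changed by 0.25 (limma adjusted p = 0.00613). MYC, a driver of ribosome production, was lower in corneal cells by both of its probes (-0.51 and -0.58), whereas TIA1 was not called (-0.06). Over the 3 lists, 5 of 15 genes were called higher and 6 lower, beside 26.8% and 33.0% of all probes. Without scaling, which lowers every change equally, the calls of BYSL (0.09), SLIRP and RPS6KB1 (0.08) were lost, and those of SBDS (0.29) and MTOR (0.20) held.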

How the data were processed

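RNA of 3 corneal and 3 epidermal samples was hybridised to single-colour Agilent sheep arrays, and the submitters' processing notes name Agilent Feature Extraction 10.7 for the spots. What was deposited for each array is linear intensity, background-subtracted and detrended within each array with no scaling between arrays recorded, per the file headers. A further deposited table holds the authors' own log2 values, each column with a median of 7.23 and a distribution like that of quantile normalization, with a correlation of at least 0.999 (rounded) to its array. It is uncentred and was used as an alternative. Groups came from the labels.

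Control and outlier spots were left out, the spots of a probe were averaged and the log2 processed signal was set relative to the array's 75th percentile. The 11740 of 15008 probes well above background on 3 or more of the 6 arrays entered 1 fit with limma 3.58.1 in R 4.3.3, 1 row per probe. The kept probe with the highest mean stood for a gene. On data simulated for this comparison over 11727 probes, with 50 probes changed at each size, the fit found 42%, 60%, 86% and 96% of changes of 0.25, 0.5, 1 and 2 log2 units, with 4 false calls. In the real data 59.8% of probes were called, a far larger part than was changed in the simulation, so these figures need not hold there. The number of arrays limits the precision. Members and lists were chosen with earlier results of these data known. Genes named were, in each class, up to 6 rises, 6 falls and the 3 smallest uncalled changes, genes below background in a group, and a fixed set of 25 genes of which 8 had a probe. In the other lists, up to 3 rises and 3 falls were named. A few genes counted in the totals are not reported here by name. Symbols of 44 of the 45 genes were found in RefSeq's sheep table. Same-numbered samples of the groups did not deviate together, with correlations of 0.02, -0.03 and 0.04, so numbers were not taken as pairs. Scaling, background correction, filters, probe rows, variance model, membership and samples were varied.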

Additional observations from a re-analysis of the deposited data

How the results depend on the processing

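The normexp background correction over all spots, in which 7 spots of epidermal replicate 1 have extreme local background, left RPL22 as the only called gene. It gave 0 higher and 1 lower large-subunit genes (median 0.17), 0 and 0 small-subunit genes (median 0.10), 0 higher mitochondrial genes (median -0.11), 204 higher and 229 lower probes in all (against 3146 and 3875), and 0 and 0 of the other ribosome-related genes. Among called named genes the change turned sign there for MRPS21 (-0.11), RPL14 (0.0126), RPL35A (0.12), RPL4 (0.0816), RPS15A (0.0682), RPS16 (0.0297), RPS25 (0.0348) and RPS6 (0.0568), as it did for 7 of 12 uncalled ones. Without those spots 20 of the 21 calls held, RPS15 turned to 0.0691 and 1 mitochondrial gene was lower. Without scaling there were 0 higher and 17 lower large-subunit genes (median -0.24), 0 and 13 small-subunit genes (median -0.26), 1 and 1 mitochondrial genes (median -0.11), 1535 higher probes, 2 higher other genes, and RPL11 at -0.0302. The small-subunit median was -0.13 under quantile normalization and -0.0663 under median centring. With the replicate block 4 large-subunit genes were lower and the block took away the calls of RPL35A, RPL4 and RPS15 among named genes. Modelling an intensity trend gave 1 lower mitochondrial gene. Members taken by gene name alone were only 15 probes, those of RPL10, RPL14, RPL6, RPS20, RPS25, RPS26, RPS27A and MRPL32. They gave 0 higher and 1 lower gene in each cytosolic class (RPL14 and RPS25) and 0 higher mitochondrial genes. Leaving out 1 sample at a time gave 3 higher and 5 to 9 lower large-subunit genes (median -0.10 to -0.05), 1 higher and 5 to 7 lower small-subunit genes (median -0.13 to -0.0814), 2 to 3 higher and 0 lower mitochondrial genes (median 0.02 to 0.13), 2811 to 3061 higher and 3386 to 3701 lower probes, and 4 higher and 5 to 6 lower other genes. The small-subunit count of 5 came without epidermal replicate 3 or corneal replicate 2. Over the alternatives, the 341 values of named genes that were called lost the call with the sign kept 33 times. They turned sign 10 times, and the call was lost in these too. The 228 values of uncalled named genes gained a call 16 times and turned sign 27 times. Apart from the 7 spots, the cause of these differences was not tested. Signal over background limits RPL10A and RPS15.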
